A study of Mus musculus with 6 samples.

Results

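The circadian clock genes described here are 10 of the 55487 genes counted in mouse aorta: Arntl, Npas2, Per1, Per2, Per3, Cry1, Dbp, Tef, Nr1d1 and Nr1d2. They were chosen by gene symbol, as transcription factors and repressors of the molecular clock, and each symbol matched 1 row of counts. RNA-seq after ribosomal RNA depletion was performed on aortas of 3 Control and 3 Prdm16 iSM KO mice, 1 library per mouse. All 6 mice were males on a C57BL/6 background, carried the Y-linked Myh11-CreERT2 transgene, in which the smooth muscle myosin promoter drives a tamoxifen-activated Cre recombinase, and received tamoxifen from 8 weeks of age. The iSM KO mice carried Prdm16 F/F (exon 9 flanked by loxP sites) and the controls Prdm16 W/W, so Cre and tamoxifen were shared by both groups. Aortas were collected, with no other treatment, 60 days after a 2-week tamoxifen washout had ended. The adventitia was stripped under a stereoscope. The hour at which each aorta was taken is not given in the sources used here.

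The clock is a feedback loop of transcription. ARNTL (also called BMAL1) pairs with CLOCK or its relative NPAS2, binds E-boxes and switches on the Per and Cry genes, whose products return to the nucleus and repress that pair. The same E-boxes drive Nr1d1 and Nr1d2, encoding the REV-ERB repressors of Arntl and Npas2 transcription, and Dbp and Tef, encoding activators that bind D-boxes. Arteries, like most tissues, hold such a clock, and Arntl and Npas2 are known to be high when the E-box targets are low, so the ratio of these genes in a single sample depends on the hour of collection.

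The promoters that link these genes are shown because the loop is written in them. RefSeq windows on GRCm38.p6, from 250 bases before to 50 after an annotated start, were found for 9 of the 10 genes, in 12 windows. Both strands were searched for the E-box CACGTG, the variant E'-box CACGTT, the D-box TTATGTAA or TTACGTAA, and the core of the REV-ERB and ROR element, TAGGTCA or TGGGTCA (named RORE core below). No matches overlapped each other. Capitals mark the matches, which read AACGTG where the E'-box lies on the other strand.
Arntl (GRCm38.p6 chr7:113207261-113207560, plus strand, RORE core 30 bases after the start): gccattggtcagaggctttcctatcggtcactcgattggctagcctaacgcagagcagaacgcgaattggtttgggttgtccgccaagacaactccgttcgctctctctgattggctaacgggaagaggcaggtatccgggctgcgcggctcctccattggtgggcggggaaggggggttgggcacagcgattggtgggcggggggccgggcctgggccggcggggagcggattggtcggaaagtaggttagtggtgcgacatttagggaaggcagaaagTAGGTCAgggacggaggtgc
Cry1 (chr10:85185005-85185304, minus strand, E'-box and E-box 79 and 60 bases before the start): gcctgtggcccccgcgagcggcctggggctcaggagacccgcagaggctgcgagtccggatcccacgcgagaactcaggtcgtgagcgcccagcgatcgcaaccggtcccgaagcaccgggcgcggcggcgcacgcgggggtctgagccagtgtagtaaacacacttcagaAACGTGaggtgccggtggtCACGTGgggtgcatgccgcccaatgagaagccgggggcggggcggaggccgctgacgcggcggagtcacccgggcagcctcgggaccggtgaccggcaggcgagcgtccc
Per1 (chr11:69098699-69098998, plus strand, E-box 166 bases before the start): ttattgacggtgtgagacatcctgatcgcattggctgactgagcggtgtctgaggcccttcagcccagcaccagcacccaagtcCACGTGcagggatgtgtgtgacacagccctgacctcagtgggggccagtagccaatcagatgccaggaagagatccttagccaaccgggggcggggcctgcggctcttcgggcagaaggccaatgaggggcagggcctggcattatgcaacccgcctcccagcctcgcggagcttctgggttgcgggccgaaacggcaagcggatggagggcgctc
Per3 (chr4:151044616-151044915, minus strand, D-boxes 205 and 158 bases before the start): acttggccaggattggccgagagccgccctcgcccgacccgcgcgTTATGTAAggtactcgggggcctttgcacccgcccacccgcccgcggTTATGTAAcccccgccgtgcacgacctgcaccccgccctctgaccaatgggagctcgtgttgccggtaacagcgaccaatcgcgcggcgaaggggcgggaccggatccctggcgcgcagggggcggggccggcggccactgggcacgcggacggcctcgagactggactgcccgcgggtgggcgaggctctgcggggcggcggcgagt
Nr1d1 (chr11:98775328-98775627, minus strand, E'-box 28 bases before the start): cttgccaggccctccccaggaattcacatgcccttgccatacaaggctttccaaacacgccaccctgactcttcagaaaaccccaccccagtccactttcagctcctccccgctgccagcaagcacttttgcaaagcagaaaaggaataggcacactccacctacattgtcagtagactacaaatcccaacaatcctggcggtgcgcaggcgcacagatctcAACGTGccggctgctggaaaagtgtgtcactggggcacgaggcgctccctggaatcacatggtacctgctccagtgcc
Tef (chr15:81811164-81811463, plus strand, E-box 138 bases before the start): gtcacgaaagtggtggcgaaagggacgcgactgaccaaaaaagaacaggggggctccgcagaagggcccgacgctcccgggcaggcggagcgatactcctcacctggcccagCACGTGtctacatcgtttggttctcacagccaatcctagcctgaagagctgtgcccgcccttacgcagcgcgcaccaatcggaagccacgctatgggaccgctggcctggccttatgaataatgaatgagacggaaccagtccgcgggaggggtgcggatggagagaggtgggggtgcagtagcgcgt
The other Tef window, chr15:81802423-81802722, held an E-box 127 bases before its start, and the other windows of Arntl and Per1 held no match. In all, 6 of the 9 genes had at least 1 match, and the windows of Npas2, Dbp and Nr1d2 had none of these letters. By motif, 3 genes had an E-box, 2 an E'-box, 1 a D-box and 1 a RORE core. Among all 32851 RefSeq promoter windows of this length, an E-box was present in 7.15%, an E'-box in 4.69%, a D-box in 1.06% and a RORE core in 6.45%. These shares are per window and per motif, so they are no background for the 6 of 9 genes with any match. Each match is a description of letters and not of a bound site. The genes without a printed window lie on GRCm38 at chr1:39193731-39363236 (Npas2), chr7:45705088-45710203 (Dbp), chr14:18204054-18239127 (Nr1d2) and chr1:91415982-91459324 (Per2).

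Prdm16 was first compared between the groups, as the check of the labels. Its level, in CPM, the count relative to the TMM-scaled library total, was 183, 223 and 179 in Controls 1, 2 and 3 and 93.8, 113 and 79.8 in iSM KO 1, 2 and 3. It fell by 1.03 on the log2 scale (SE 0.14, FDR 0.00265), where FDR is the Benjamini-Hochberg adjusted p of edgeR's quasi-likelihood test over all 16565 tested genes. The count covers the whole gene, not exon 9 alone. The smooth muscle markers Myh11, Acta2, Tagln, Cnn1, Smtn, Lmod1 and Myocd summed to 22392 to 27357 CPM in the controls and 24004 to 26415 CPM in the iSM KO libraries, and of these 7, Myocd rose (0.65 on the log2 scale), a call lost without iSM KO 1. Fibroblast markers were still present, at a sum of 1069, 1113 and 1309 CPM in the controls and 811, 789 and 812 CPM in iSM KO. In edgeR 0 of these 6 passed an FDR under 0.05 and 6 had an unadjusted p under 0.05, against 7.56% and 22.1% of all tested genes. DESeq2 placed Col1a1 and Pi16 under that FDR, among 1711 of the 16565 tested genes. All 6 log2 fold changes were below 0, with a median of -0.65 against -0.014 over all tested genes. Myocd, Col1a1 and Pi16 are named after their values were seen. Macrophage markers summed to 22.6 to 25.7 CPM in the controls and 9.37 to 29.2 CPM in iSM KO, and T and B cell markers to at most 1.01 CPM in any library. Library totals were 24911609 to 40460467 counts. In bulk tissue, fewer cells of a type and less RNA per cell cannot be told apart.

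None of the 10 clock genes differed between iSM KO and Control aortas at an FDR under 0.05 in edgeR. The background over all tested genes was 7.56% at that threshold. Npas2, Per2 and Dbp had an unadjusted p under 0.05, 3 of 10 against 22.1% of all tested genes, and DESeq2 and limma-voom gave 3 and 4 of the 10 at that unadjusted level. DESeq2, the method of the study, placed Npas2 and Per2 under an FDR of 0.05, and limma-voom placed none there. By DESeq2, Npas2 also exceeded the 2-fold change that the study required (log2 fold change -1.26, FDR 0.00981), and Per2 did not (0.51, FDR 0.0148). Over all 16565 tested genes, DESeq2 placed 1711 under that FDR. The log2 fold change was above 0 for 4 genes and below 0 for 6, with a median of -0.089 against -0.014 over all tested genes. Npas2 was the only one whose groups did not overlap in CPM, against 27.9% of all tested genes.

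**Figure D1:**
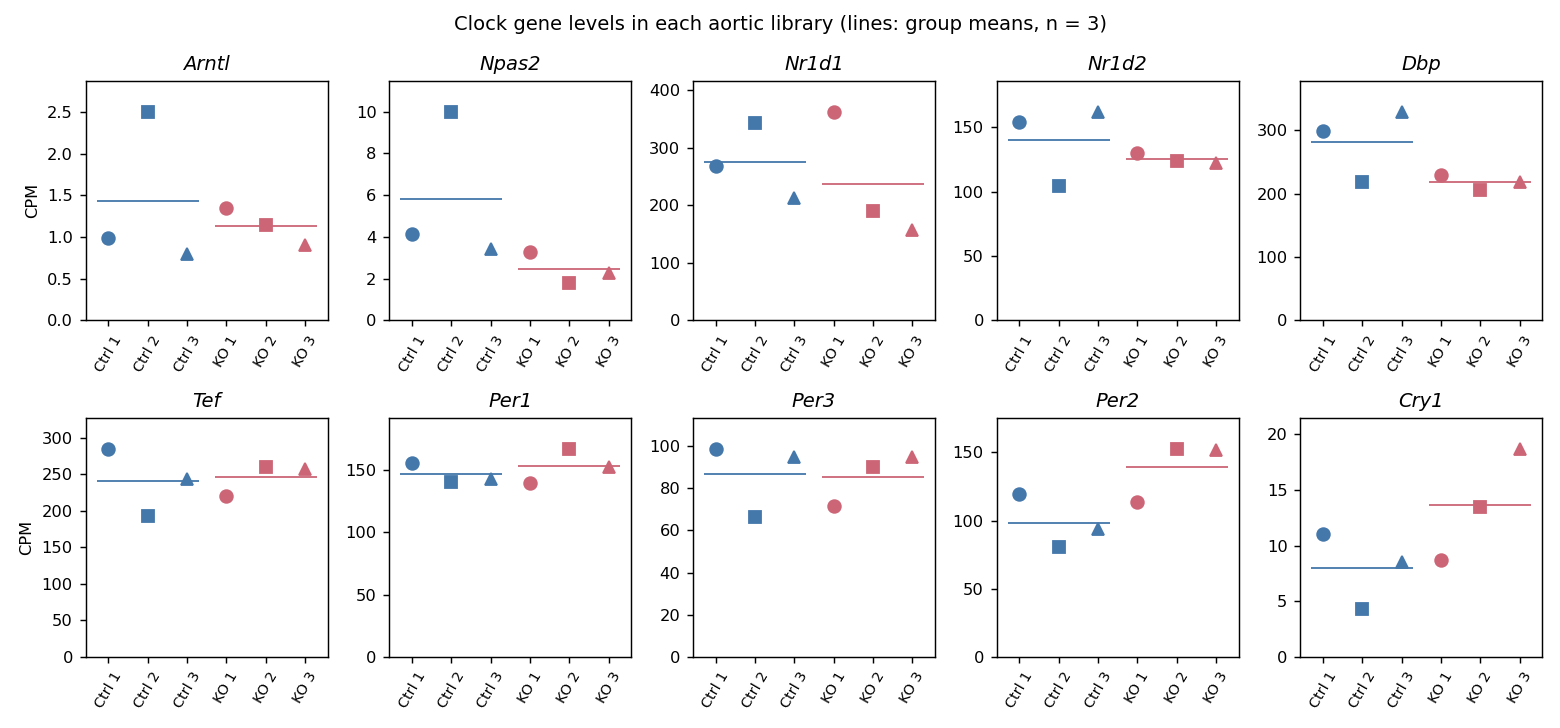
CPM (y axis, from 0) of each of the 10 clock genes in the 6 libraries (x axis; Ctrl, Control; KO, iSM KO), with points for libraries and lines for group means, n = 3. Control 2 has the highest Arntl and Npas2 points and the lowest Cry1 and Per2 points, and only the Npas2 panel has groups that do not overlap.

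**Figure D2:**
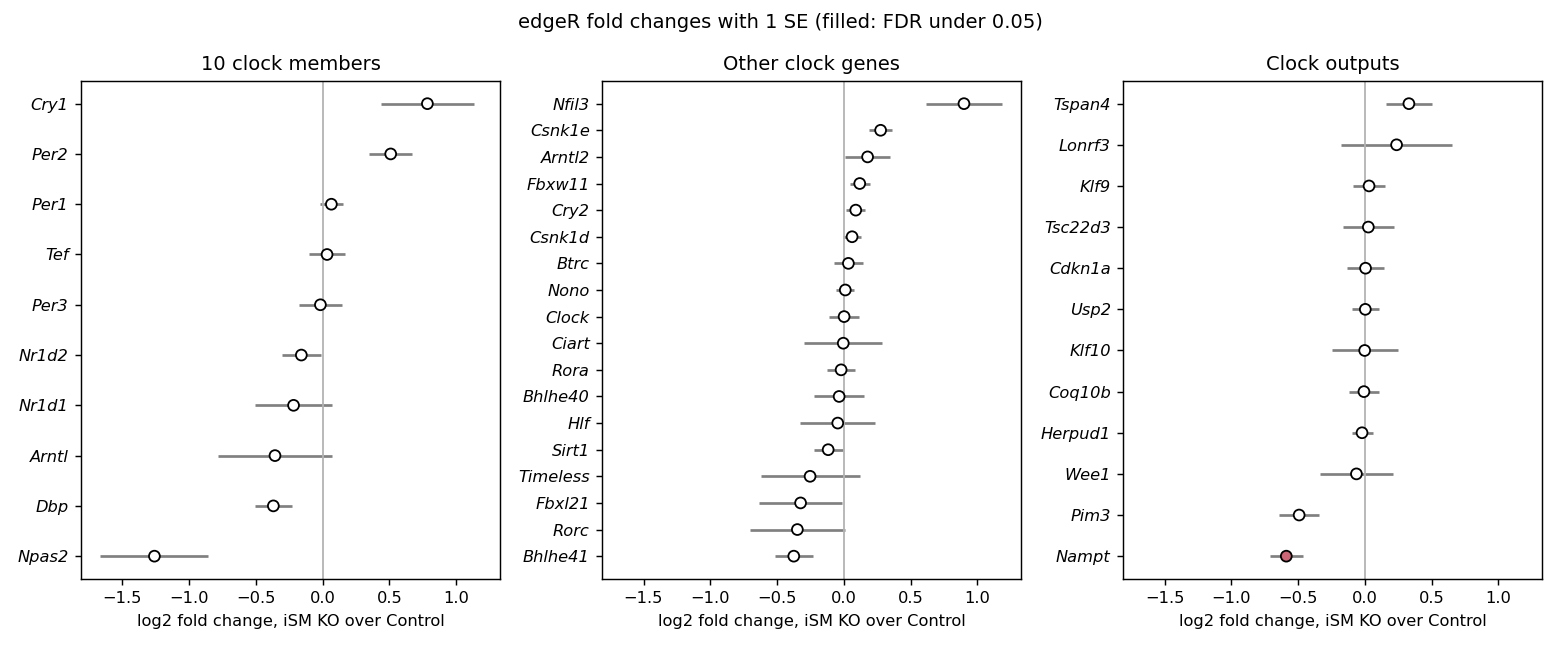
The log2 fold change of iSM KO over Control with 1 SE (x axis) for the 10 clock genes, 18 other clock genes and 12 clock output genes (y axis). Among these, Nampt is the only filled point, that is, the only gene at an FDR under 0.05.

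Arntl, which encodes the partner of CLOCK or NPAS2 in the activating pair, was the least abundant of the clock genes described here. It had 33, 96 and 19 reads in Controls 1, 2 and 3 and 55, 40 and 33 in iSM KO 1, 2 and 3, or 0.985, 2.498 and 0.797 CPM against 1.35, 1.146 and 0.903 CPM. Control 2 was above the other 5 libraries, which lay between 0.797 and 1.35 CPM, and the groups overlapped. The means were 1.43 ± 0.93 and 1.13 ± 0.22 CPM (n = 3, SD), and the log2 fold change was -0.36 (SE 0.43, FDR 0.666). Without Control 2 the sign turned, to 0.34 (FDR 0.564).

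Npas2, which encodes the CLOCK relative, repeated the high value in Control 2. Its CPM was 4.12, 9.97 and 3.40 in Controls 1, 2 and 3 and 3.29, 1.81 and 2.25 in iSM KO 1, 2 and 3. Every iSM KO library was below every control, by a narrow margin between iSM KO 1 and Control 3. The log2 fold change of -1.26 (SE 0.40, unadjusted p 0.0124, FDR 0.103) was the largest of the 10 in size, and it became -0.62 (FDR 0.219) without Control 2. Clock, the third gene of the activating pair, measured 59.9 ± 6.09 and 60.1 ± 8.05 CPM (n = 3, SD), and the log2 fold change was 0.0025 (FDR 0.994).

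Among the Period genes, whose products carry the repressing complex, Per2 had the largest difference. Its CPM was 120, 80.6 and 93.7 in Controls 1, 2 and 3 and 114, 153 and 152 in iSM KO 1, 2 and 3. The pair iSM KO 2 and 3 lay above all controls, while iSM KO 1 lay below Control 1. The means were 98.0 ± 19.9 and 139.5 ± 22.3 CPM (SD, n = 3), and the log2 fold change was 0.51 (SE 0.16, unadjusted p 0.0110, FDR 0.0963). Leaving out Control 1 gave 0.69 (FDR 0.0338), and leaving out Control 2 gave 0.39 (FDR 0.172).

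Per1, whose window carries an E-box in the lines above, was the steadiest of the 10. It measured 156, 140 and 143 CPM in Controls 1, 2 and 3 and 140, 167 and 153 CPM in iSM KO 1, 2 and 3. Its highest library was 1.19-fold its lowest, and the log2 fold change was 0.065 (SE 0.089, FDR 0.708). Per3, with the 2 D-boxes, lies 3.27 Mb from Prdm16 on chromosome 4. Its CPM was 98.7, 66.2 and 94.98 in Controls 1, 2 and 3 and 71.7, 90.1 and 94.8 in iSM KO 1, 2 and 3. Control 2 and iSM KO 1 were the low libraries, 1 in each group, and the log2 fold change was -0.017 (SE 0.16, FDR 0.963).

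Cry1, which encodes a cryptochrome that represses the ARNTL and CLOCK pair, was the mirror of Arntl and Npas2 in Control 2. It measured 11.04, 4.27 and 8.51 CPM in Controls 1, 2 and 3 and 8.73, 13.5 and 18.7 CPM in iSM KO 1, 2 and 3. Control 2 was lowest, iSM KO 2 and 3 were highest, and iSM KO 1 fell within the range of the controls. The means were 7.94 ± 3.42 and 13.6 ± 4.97 CPM (n = 3, SD), and the log2 fold change was 0.78 (SE 0.35, unadjusted p 0.0512, FDR 0.228). It was 0.47 (FDR 0.354) without Control 2, 0.48 (FDR 0.495) without iSM KO 3 and 1.13 (FDR 0.139) without Control 1.

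Dbp, the D-box activator and a direct target of the ARNTL pair, measured 299.7, 218 and 329 CPM in Controls 1, 2 and 3 and 230.0, 206 and 218 CPM in iSM KO 1, 2 and 3. Controls 1 and 3 were above all iSM KO libraries, and Control 2 lay among them. The means were 282 ± 57.4 and 218 ± 11.8 CPM (n = 3, SD), and the log2 fold change was -0.37 (SE 0.14, unadjusted p 0.0271, FDR 0.163). It was -0.52 (FDR 0.0128) without Control 2 and -0.25 (FDR 0.345) without Control 3. Dbp shares 539 bp, 18.0% of its exonic bases, with Sphk2 on the opposite strand, and whether strand was used in counting is not stated. Sphk2 had a log2 fold change of 0.30 (FDR 0.115).

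Tef, a relative of Dbp that binds the same element, measured 285, 193 and 243 CPM in Controls 1, 2 and 3 and 220, 260 and 258 CPM in iSM KO 1, 2 and 3. Control 2 was again lowest and the groups overlapped. Its log2 fold change was 0.032 (SE 0.14, FDR 0.918), and it turned to -0.10 (FDR 0.618) without Control 2.

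Nr1d1, which encodes REV-ERB alpha, had the widest spread inside the iSM KO group of the abundant genes. It measured 268, 344 and 213 CPM in Controls 1, 2 and 3 and 361, 191 and 157 CPM in iSM KO 1, 2 and 3. Control 2 and iSM KO 1 were high, and iSM KO 2 and 3 were below every control. The means were 275 ± 65.5 and 236 ± 109.8 CPM (n = 3, SD), and the log2 fold change was -0.22 (SE 0.29, FDR 0.7004), which became -0.67 (FDR 0.116) without iSM KO 1 and 0.0020 (FDR 0.997) without iSM KO 3. It was -0.023 (FDR 0.972) without Control 2. Nr1d1 shares 263 bp, 8.55% of its exonic bases, with Thra on the opposite strand, and Thra had a log2 fold change of 0.053 (FDR 0.820). Thra measured 166, 200 and 165 CPM in Controls 1, 2 and 3 and 207, 179 and 166 CPM in iSM KO 1, 2 and 3. Its highest libraries, iSM KO 1 and Control 2, were also the highest of Nr1d1. Whether Thra reads add to the Nr1d1 values of these libraries was not tested.

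Nr1d2, which encodes REV-ERB beta, did not follow Nr1d1 in Control 2. It measured 155, 104 and 162 CPM in Controls 1, 2 and 3 and 130.1, 124 and 122 CPM in iSM KO 1, 2 and 3. The iSM KO libraries were close together, between the low Control 2 and the higher Controls 1 and 3. The log2 fold change was -0.16 (SE 0.15, FDR 0.569), and it was -0.33 (FDR 0.0363) without Control 2, -0.073 (FDR 0.834) without Control 1 and -0.046 (FDR 0.899) without Control 3. A transcript annotated as AC170187.1 is 96.1% identical to Nr1d2 over 1385 bp, so the sharing of reads between them is uncertain.

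Per kilobase of merged exons, Dbp and Nr1d1 were the most abundant of the 10 in the controls, at 94.3 ± 19.2 and 89.3 ± 21.3 CPM per kb (SD, n = 3). Tef, Per1 and Nr1d2 followed at 30.6 ± 5.81, 26.0 ± 1.45 and 25.9 ± 5.81 CPM per kb, with overlapping libraries. Per2 stood at 16.7 ± 3.39 and Per3 at 9.02 ± 1.85 CPM per kb. The low end was formed by Cry1 at 2.38 ± 1.03, Npas2 at 1.22 ± 0.75 and Arntl at 0.19 ± 0.12 CPM per kb. Neighbours in this order whose control libraries overlapped were Dbp and Nr1d1, Tef with Per1 and Nr1d2, Nr1d2 and Per2, and Cry1 and Npas2. The libraries of Nr1d1 and Tef, Per2 and Per3, Per3 and Cry1, and Npas2 and Arntl did not overlap.

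The libraries differed from each other in the clock genes inside a group. The SD of log2 CPM within groups was 0.63 for Arntl, 0.65 for Npas2, 0.63 for Cry1 and 0.51 for Nr1d1, against a median of 0.18 over all tested genes, and it was 0.11 for Per1. From the lowest to the highest library, Npas2 ranged 5.52-fold, Cry1 4.38-fold, Arntl 3.14-fold and Nr1d1 2.31-fold. Control 2 stood apart: relative to the mean of Controls 1 and 3, its level was 2.80-fold for Arntl, 2.65-fold for Npas2 and 1.43-fold for Nr1d1, but 0.436-fold for Cry1, 0.658-fold for Nr1d2 and 0.684-fold for Per3. The differences of Arntl, Npas2 and Cry1 exceeded in size those of 99.05%, 98.9% and 97.95% of tested genes. Control 2 was the lowest of the 6 libraries for 5 of the 10 genes, Cry1, Per2, Per3, Tef and Nr1d2, and the highest for Arntl and Npas2. Over all tested genes it was lowest for 15.5% and highest for 14.9%.

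**Figure D3:**
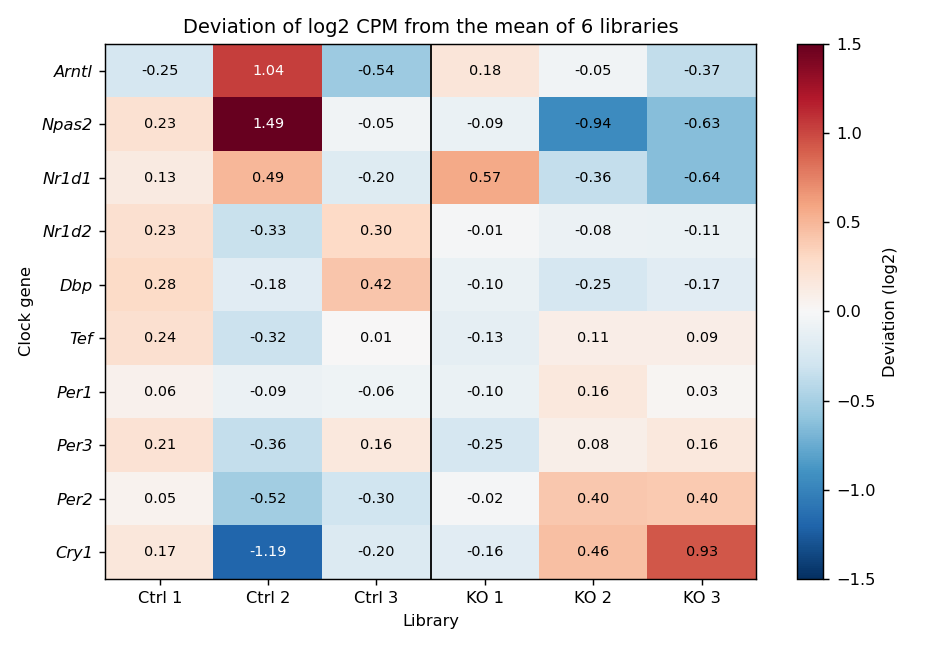
Deviation of log2 CPM from the mean of the 6 libraries (colour and printed value) for each clock gene (rows) in each library (columns; the line separates Ctrl, Control, from KO, iSM KO). Control 2 reads 1.04 for Arntl and 1.49 for Npas2 against -1.19 for Cry1 and -0.52 for Per2.

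To place each library between the arms of the loop, the deviations in log2 CPM were averaged over Per1, Per2, Per3, Dbp, Tef, Nr1d1 and Nr1d2, and the average over Arntl and Npas2 was subtracted. This arm contrast was 0.19, -1.45 and 0.34 in Controls 1, 2 and 3 and -0.048, 0.50 and 0.47 in iSM KO 1, 2 and 3. Control 2 was far on the Arntl and Npas2 side, and the other 5 libraries lay between -0.048 and 0.50. The score of Control 2 came mostly from Arntl and Npas2, whose mean deviation was 1.26. Over the remaining genes of the score the mean deviation was -0.19 in Control 2 and 0.17 in Control 1. Of those genes, Nr1d1 alone was positive in Control 2, at 0.49. The group means were -0.31 ± 0.99 and 0.31 ± 0.31 (SD, n = 3), which overlap, and their difference of 0.61 became 0.042 without Control 2. It is a score over chosen genes and carries no p.

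A second contrast set Nr1d1 and Dbp, known to peak early among the E-box targets, against Per2 and Cry1, which peak later. It was 0.098, 1.01 and 0.36 in Controls 1, 2 and 3 and 0.33, -0.73 and -1.07 in iSM KO 1, 2 and 3. In iSM KO 2 and 3 the late genes were high and the early genes low, whereas iSM KO 1 lay in the range of the controls. Nr1d1 and Dbp did not move together (Pearson r 0.023 over the 6 libraries). They deviated by 0.49 and -0.18 in Control 2, where Cry1 and Per2 deviated by -1.19 and -0.52. In iSM KO 1 Nr1d1 and Dbp deviated by 0.57 and -0.098. In iSM KO 2 Nr1d1 and Dbp deviated by -0.36 and -0.25, and Cry1 and Per2 by 0.46 and 0.40. In iSM KO 3 these deviations were -0.64 and -0.17, and 0.93 and 0.40. The means of this contrast were 0.49 ± 0.47 and -0.49 ± 0.73 (SD, n = 3). Their difference of -0.98 ranged from -1.39 to -0.69 when each library was left out. In the plane of both contrasts Control 2 lay alone, Controls 1 and 3 lay near iSM KO 1, and iSM KO 2 and 3 lay near each other. No phase in hours was fitted, since 6 libraries of unknown hour give no reference curve.

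**Figure D4:**
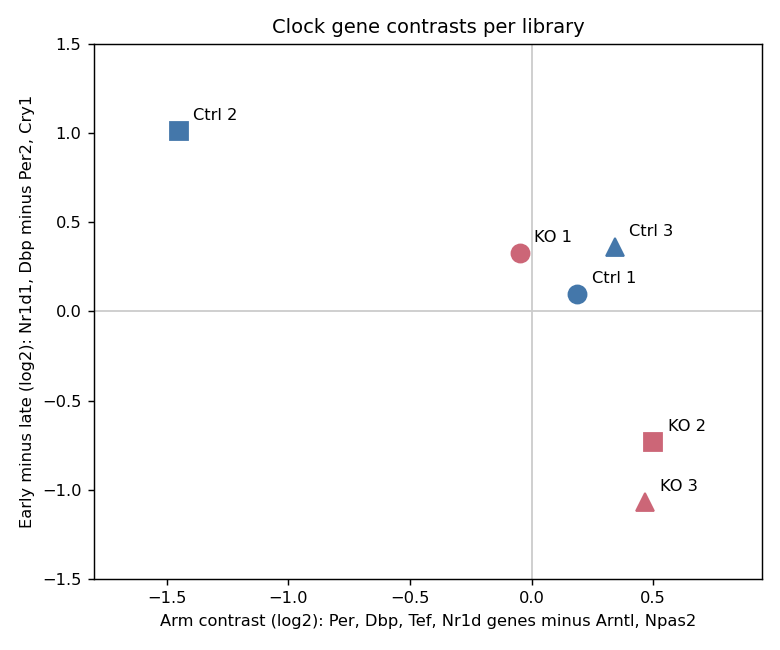
Each library (Ctrl, Control; KO, iSM KO) by its arm contrast (x axis, log2) and its early minus late contrast (y axis, log2). Control 2 sits at -1.45 and 1.01, and iSM KO 2 and 3 sit at 0.50 and -0.73 and at 0.47 and -1.07.

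The lists for stimulation, temperature, glucocorticoids and other cell types also differed between libraries, and their part in the clock gene values was not tested. Of all tested genes, 7.56% passed an FDR under 0.05 in edgeR. The immediate early, adipocyte and endothelial sums were highest in Control 2, the temperature sum in iSM KO 1 and the brown adipocyte sum in Control 3. The 12 immediate early genes, which respond within minutes to stimulation or tissue handling, summed to 942, 2023 and 904 CPM in Controls 1, 2 and 3 and to 806, 703 and 710.3 CPM in iSM KO, and 11 of the 12 were highest in Control 2. In that list 4 of 12 fell in iSM KO at an FDR under 0.05, among them Fos (-2.85, or -1.67 without Control 2) and Dusp1 (-1.28). The log2 fold change was below 0 for 10 of the 12 and above 0 for 2. Those 2, named after their values were seen, were Egr2 (1.33, FDR 0.0628) and Egr1 (0.12, FDR 0.860). Egr2 was called by limma-voom and without Control 2, and Egr1 without Control 2. Fos was not called without iSM KO 1 or iSM KO 2, nor Dusp1 without iSM KO 2. The 9 temperature-responsive genes summed to 1101, 1865 and 1128 CPM in the controls and to 2005, 1827 and 1497 CPM in iSM KO. Hspb1 alone passed and rose, a call lost without Control 1, Control 3, iSM KO 1 or iSM KO 2. The sum hides opposite directions, with 6 log2 fold changes above 0 and 3 below. Those below were Cirbp (-0.36, FDR 0.111), Rbm3 (-0.30, FDR 0.152) and Dnajb1 (-0.13, FDR 0.873). Without Control 2, Cirbp, Rbm3, Hspa1a, Hspa1b and Hspa8 were called beside Hspb1, among 1402 of 16667 genes in that fit. Adipocyte markers summed to 10.4, 130.2 and 39.8 CPM in the controls and to 3.44, 1.92 and 6.21 CPM in iSM KO, and 4 of the 5 tested fell: Adipoq (-3.93), Cfd (-4.46), Cidec (-3.50) and Plin1 (-3.35). None of these 4 was called by limma-voom, without iSM KO 1 or without iSM KO 2. Cidec and Plin1 were also lost without Control 2, without Control 3 and with a replicate block, Cidec without iSM KO 3 too, and the groups of Cidec overlapped. Of the brown adipocyte markers 1 of 2 tested, Cidea (-1.87, not called without iSM KO 2), fell, with sums of 3.58, 10.5 and 44.8 CPM in the controls and 4.81, 2.69 and 3.18 CPM in iSM KO. Glucocorticoid targets summed to 653, 551 and 665 CPM against 662, 646 and 643 CPM, and of 10 tested, Zbtb16 rose (0.45) and Cebpd fell (-0.84). The call of Zbtb16 was lost with any of the 6 libraries left out and with a replicate block, and that of Cebpd without Control 1, Control 3 or iSM KO 2. Hspb1, Cirbp, Rbm3, Dnajb1, Hspa1a, Hspa1b, Hspa8, Zbtb16 and Cebpd, all under 2-fold with all 6 libraries, are named after their values were seen. Endothelial markers summed to 846, 987 and 479 CPM against 251, 452 and 759 CPM, with 0 of 7 past the threshold in edgeR and 0 at an unadjusted p under 0.05.

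The other genes of the clock were read in the same way. Of 19 genes listed as partners, kinases and ligases of the loop, 18 were tested and 0 passed in edgeR, against 7.56% of all tested genes. DESeq2 placed 1, Nfil3, under an FDR of 0.05. The median log2 fold change of the 18 was -0.00057, with 9 above and 9 below 0. In edgeR, 3 of the 18 had an unadjusted p under 0.05, against 22.1% of all tested genes (DESeq2 and limma-voom also gave 3). Those 3, named after their values were seen, were Nfil3, the repressor that competes with DBP for D-boxes (0.90, FDR 0.102), the kinase gene Csnk1e (0.28, FDR 0.0907) and the E-box repressor gene Bhlhe41 (-0.37, FDR 0.161). Control 2 was the lowest library for 3 of the 19 genes, a share near the 15.5% of all tested genes. Those 3, also named after their values were seen, were Rora, Hlf and Ciart. Relative to the mean of Controls 1 and 3, Control 2 was 0.803-fold for Rora, 0.486-fold for Hlf and 0.429-fold for Ciart. These differences exceeded in size those of 70.3%, 96.6% and 98.1% of tested genes.

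Of 12 genes listed as clock outputs, 1 passed, against 7.56% of all tested genes. Nampt, encoding the rate-limiting enzyme of NAD salvage, measured 55.05, 42.9 and 55.1 CPM in Controls 1, 2 and 3 and 29.9, 34.4 and 37.4 CPM in iSM KO 1, 2 and 3. All iSM KO libraries were below all controls, and 27.9% of all tested genes had groups that did not overlap. Nampt fell by 0.59 on the log2 scale (SE 0.12, FDR 0.0210), below the 2-fold change that the study also required. Its FDR was 0.0619 without Control 1, 0.0686 without Control 3, 0.0795 without iSM KO 1 and 0.0844 without iSM KO 2. The other 11 outputs did not pass, and the median over the 12 was 0.0015. Control 2 was the lowest library for 5 of the 12 outputs and the highest for 2. Over all tested genes it was lowest for 15.5% and highest for 14.9%.

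**Figure D5:**
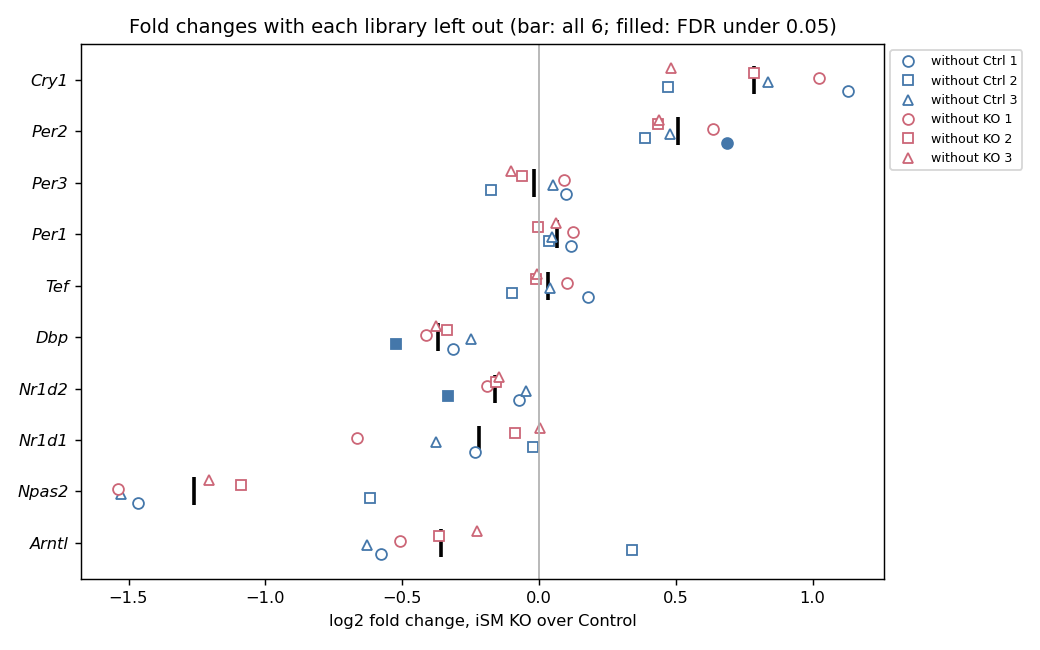
The log2 fold change of iSM KO over Control (x axis) for each clock gene (y axis) with all 6 libraries (bar) and with each library left out in turn (points; filled, FDR under 0.05). Arntl moves from -0.36 to 0.34 without Control 2, Dbp and Nr1d2 are filled without Control 2, and Per2 is filled without Control 1.

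The genes whose log2 CPM most resembled Arntl over the 6 libraries, among 13890 compared, were Xpo7, Sdhaf1, Gpt, Gm37233 and 1110038B12Rik, with Pearson r of 0.98 to 0.99. These points share libraries and depth, and the largest value of Arntl is that of Control 2. The r does not measure the size of a change: Xpo7 ran only from 32.9 to 36.2 CPM. Within the clock set, Arntl correlated at 0.74 with Npas2 and at 0.69 with Nr1d1, and at -0.90 with Per3, -0.82 with Tef, -0.79 with Nr1d2 and -0.77 with Cry1. Of the compared genes, 3.15%, 4.64%, 99.2%, 97.8%, 97.3% and 96.6% had a higher r with Arntl than these 6 genes, in that order. For Dbp the closest genes were Dusp19, 4930430F08Rik, Platr25, Arpc5l and Ubxn8, with r of 0.994 to 0.998. The closest clock gene was Nr1d2 at 0.89, and 3.67% of the compared genes had a higher r with Dbp. These values are descriptions over 6 libraries and carry no p.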

How the data were processed

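Aortic RNA of 3 iSM KO and 3 Control mice was sequenced as ribosomal RNA-depleted, paired-end libraries. The authors mapped and quantified reads against Ensembl mouse annotation on mm10 with DRAGEN. The deposited table holds estimated counts, 1 row per gene, with no normalization. How reads matching several genes were shared, and whether strand was used, are not given in the sources used here. Counts were rounded. As in the study's methods, a gene entered the tests (16565 of 55487 did) where every library of either group had over 10 counts. The test was the quasi-likelihood test of edgeR 4.0.16 under R 4.3.3, with TMM factors, both groups in 1 fit and Benjamini-Hochberg adjusted p-values (FDR). The study used DESeq2, run here (1.42.0) as an alternative beside limma-voom (limma 3.58.1), other normalization and filters, a replicate block and each library left out. Log2 CPM used a prior count of 2. The scripts were tested on simulated data. The clock genes and the other lists were chosen with earlier results of these data known, and 1 gene of the list of other clock genes is not reported here. Named genes are the 10 clock genes, Prdm16, other clock and output genes past the FDR, companion genes past the FDR and 2-fold, and the 5 genes most like Arntl and Dbp with a mean of at least 1 CPM. Others are named as chosen after their values were seen. Positions are from GENCODE on GRCm38 and promoters from RefSeq on GRCm38.p6. P-values measure the spread between mice.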

Additional observations from a re-analysis of the deposited data

How the results depend on the processing

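Of the 10 clock genes, the count at an FDR under 0.05 moved from 0 to 2 with DESeq2 (Npas2, FDR 0.00981, and Per2, FDR 0.0148) and to 3 without a filter on low counts (those with Cry1), and ranged from 0 to 2 with each library left out. Of the other clock genes it moved from 0 to 1 with DESeq2 and without a filter, and ranged from 0 to 1. Of the outputs it moved from 1 to 2 with DESeq2 and without a filter, and ranged from 0 to 1. The companion lists, an alternative chosen after seeing the data, gave 13 genes, 34 without a filter and 1 (without iSM KO 2) to 22 (without Control 2) with each library left out, 5 without iSM KO 1. Among them Fos passed neither without iSM KO 1 (FDR 0.0682) nor without iSM KO 2 (FDR 0.0819), and Dusp1 not without iSM KO 2 (FDR 0.0510). Over all genes, the count of 1252 ranged from 516 to 1402 with each library left out, and was 1711 with DESeq2. Signs turned with 1 library left out for Arntl (range -0.63 to 0.34, the last without Control 2), Per1 (-0.0050 without iSM KO 2, to 0.12), Per3 (-0.18 to 0.097, above 0 without Control 1, Control 3 or iSM KO 1, at 0.097, 0.052 and 0.093), Tef (-0.10, -0.012 and -0.0071 without Control 2, iSM KO 2 and iSM KO 3, to 0.18), Nr1d1 (-0.67 to 0.0020, the last without iSM KO 3) and Thra (-0.043 without iSM KO 1, to 0.15). The causes were not tested. With a replicate block the counts were 0, 0, 1 and 11 for the 4 sets, and over all genes 775. Same-numbered libraries did not deviate together (correlations -0.13, -0.046 and -0.11), so the numbers are not taken as pairs. Arntl rests on 19 to 96 reads, so counting error limits its precision.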
